A study of Homo sapiens with 6 samples.

Results

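A set of 10 genes that pathologists and molecular biologists use to recognise serous carcinoma of the ovary were followed, chosen by name as the rows of the deposited gene count table for PAX8, WT1, SOX17, EMX2, MECOM, MUC16, MSLN, WFDC2, FOLR1 and CRABP2, 10 of 58735 genes in all. RNA was sequenced from 3 BARD1-expressing and 3 control samples of a human ovarian carcinoma line. Both groups are labelled as stable cells, of a high grade ovarian serous adenocarcinoma, at 48 h. The BARD1-expressing cells had been transduced with a lentivirus that carries the BARD1 reading frame, per the labels' protocols, and the labels give no vector for the controls and no number of clones. The labels disagree on the line and the material: OVCAR8ip1 or OVCAR8 cells in the titles and protocols, but SKOV3ip1 under cell line and SKOV3ip1 tumors as the source. An effect of BARD1 and any other difference between the 2 cell populations cannot be told apart. In such bulk RNA, fewer cells with a transcript and less transcript per cell cannot be told apart either.

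Serous carcinoma is thought to arise largely from the epithelium of the fallopian tube, which descends from the Müllerian duct. PAX8 is a paired box transcription factor of that lineage, and SOX17 (an SRY-box factor), EMX2 (a homeobox factor), MECOM (a zinc finger factor) and WT1 (a zinc finger factor also of kidney, gonad and mesothelium) are other regulators found in it. MUC16 is the membrane mucin that carries the CA125 epitope, and mesothelin, the product of MSLN, is a cell surface protein that binds it. WFDC2 encodes the secreted serum marker HE4, FOLR1 a folate receptor anchored in the cell membrane, and CRABP2 a cytosolic protein that hands retinoic acid to its nuclear receptors.

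In BARD1-expressing cells the lineage factor PAX8 fell to 91.4 ± 6.09 CPM, against 143 ± 8.98 CPM in control cells, and the retinoic acid carrier CRABP2 fell to 7.68 ± 0.818 CPM, against 11.5 ± 0.709 CPM in control cells (SD, n = 3 each; CPM is the read count scaled to a common library size, with factors from the trimmed mean of M values). The folate receptor gene FOLR1 and WT1 passed the test upwards at low counts, in calls that other settings did not keep. MSLN, the most abundant of the 10 genes, and WFDC2 were not called. MUC16, EMX2 and MECOM had no read in any of the 6 libraries, and SOX17 had a single read. In counts, 2 of 10 genes were called higher, 2 lower and 2 not called, and 4 had too few reads to be tested (called at an adjusted p under 0.05 in the edgeR quasi-likelihood fit). Over all 15400 tested genes 29.0% were called, 16.5% higher and 12.4% lower, and the calls among the 10 genes are read against that background. Groups did not overlap at 4 of the 6 tested genes (PAX8, CRABP2, FOLR1 and WFDC2) and at 40.9% of all tested genes.

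The libraries held 12744310 to 24349158 counted reads in BARD1-expressing cells and 21819199 to 23992482 in control cells. BARD1 itself had 623, 1072 and 688 reads in BARD1-expressing cells, against 414, 392 and 420 in control cells (log2 fold change 1.37 ± 0.081 SE, edgeR adjusted p = 4.67e-12), and the groups did not overlap. Mitochondrially encoded transcripts took 0.965% to 1.31% of reads in BARD1-expressing libraries and 1.90% to 2.40% in control libraries, and on chromosome 18 170 of 228 tested genes (74.6%) were lower. None of the 10 genes lies on either, and with scaling factors computed without those genes 2 of the 10 genes were again called higher and 2 lower.

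On a scale per transcript length (TPM, from the counts and the gene lengths of the deposited table) the 10 genes spanned from the top of the transcriptome to no detectable expression. MSLN stood at 285 to 301 TPM in BARD1-expressing libraries and 258 to 289 TPM in control libraries, a mean above that of 97.4% of 19951 protein-coding genes. PAX8 came next, at 46.8 to 51.2 TPM in BARD1-expressing libraries and 68.8 to 78.9 TPM in control libraries, above 85.1% of them. CRABP2 had 25.2 to 30.9 TPM in BARD1-expressing libraries and 38.0 to 42.3 TPM in control libraries. FOLR1 followed with 7.92 to 10.3 TPM in BARD1-expressing libraries and 5.85 to 6.05 TPM in control libraries, above 54.3% of protein-coding genes. WFDC2 had 2.30 to 3.20 TPM in BARD1-expressing libraries and 3.66 to 4.77 TPM in control libraries, and WT1 0.384 to 1.66 TPM in BARD1-expressing libraries and 0.288 to 0.426 TPM in control libraries. These 6 genes kept the same order in both groups, and no neighbours in the order overlapped within a group.

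**Figure D1:**
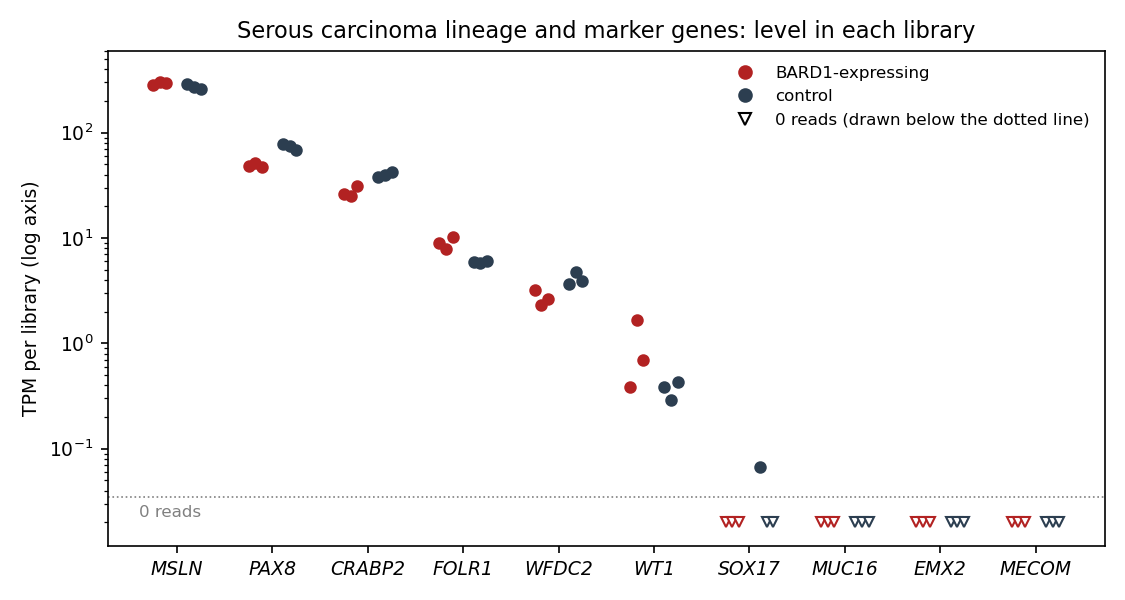
Level of the 10 genes in each library, in TPM on a log axis, ordered by their mean, with 3 BARD1-expressing libraries (red) left of 3 control libraries (dark) for each gene. Open triangles below the dotted line are libraries with 0 reads. MSLN stands at 258 to 301 TPM, PAX8 and CRABP2 lie lower in BARD1-expressing cells, and MUC16, EMX2 and MECOM show only triangles.

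Of the 5 transcription factors, PAX8 (ENSG00000125618, chromosome 2, 113215997 to 113278950, minus strand, GRCh38) was the only one above 2 TPM. PAX8 had 87.9, 98.4 and 87.8 CPM in BARD1-expressing libraries 1 to 3, against 152, 144 and 134 CPM in control libraries 1 to 3. Each BARD1-expressing library lay below each control library. The log2 fold change was -0.65 ± 0.061 (SE, edgeR adjusted p = 1.19e-08), which is 0.639 of the control level. By exact permutation over the 6 libraries p was 0.1 (two-sided), which is the lowest value possible with 3 in each group.

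PAX8 shares its locus with PAX8-AS1 (ENSG00000189223, 113211522 to 113276581, plus strand), an antisense RNA gene that runs across most of PAX8. In GENCODE release 29, whose coordinates for all 10 genes are those of the deposited table, 685 bases are exonic in both, 9.26% of the exon bases of PAX8 and 3.97% of those of PAX8-AS1. PAX8-AS1 had 113, 197 and 120 reads in BARD1-expressing libraries and 328, 286 and 309 in control libraries. It fell by 0.69 ± 0.113 on the log2 scale (SE, edgeR adjusted p = 4.29e-05), without overlap between the groups. PAX8 had 9.89 to 12.1 reads per read of PAX8-AS1 in BARD1-expressing libraries and 9.41 to 11.5 in control libraries, so the ratio overlapped between the groups. The sources used here do not state if reads were counted by strand, so reads from the shared bases cannot be told apart. With the counts of both genes added together the log2 fold change was -0.65 ± 0.058.

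WT1 (ENSG00000184937, chromosome 11, 32387775 to 32435630, minus strand) was near the limit of detection. It had 5, 43 and 11 reads in BARD1-expressing libraries 1 to 3 and 10, 7 and 10 in control libraries 1 to 3. The 43 reads of BARD1-expressing library 2 are 1.78 CPM, with an exact 95% Poisson interval of 1.29 to 2.39 CPM, and the interval in BARD1-expressing library 1 was 0.128 to 0.918 CPM (counting error only). Library 2 stood above its own group as well as above the controls, and BARD1-expressing library 1 (0.393 CPM) lay inside the control range of 0.307 to 0.461 CPM. The fit gave a log2 fold change of 1.43 ± 0.470 (SE, edgeR adjusted p = 0.0246), but without BARD1-expressing library 2 it was 0.53 (adjusted p = 0.555), and without BARD1-expressing library 1 it was 1.72. The call was also lost without control library 1 or 2 and with DESeq2 or a replicate block, with adjusted p from 0.0529 to 0.126. The antisense gene WT1-AS, which shares 113 exonic bases with WT1, had 2, 6 and 1 reads in BARD1-expressing libraries and 3, 2 and 2 in control libraries, too few to test, and its highest value was in the same library as that of WT1.

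SOX17 (ENSG00000164736) had no read in BARD1-expressing libraries and 1, 0 and 0 reads in control libraries 1 to 3. EMX2 (ENSG00000170370, chromosome 10, 117542444 to 117549546, plus strand) and MECOM (ENSG00000085276, chromosome 3, 169083499 to 169663618, minus strand) had 0 reads in all 6 libraries. A count of 0 allows up to 3 reads, which is 0.123 to 0.235 CPM per library, or 0.146 to 0.291 TPM for EMX2 and 0.0522 to 0.104 TPM for MECOM. Of 19951 protein-coding genes, 18.4% likewise had no read in any library. EMX2OS, the antisense neighbour of EMX2, also had 0 reads throughout. The processed pseudogene RPL22P1 (ENSG00000213178) lies within MECOM and overlaps none of its exons. RPL22P1 had 155, 387 and 203 reads in BARD1-expressing libraries and 388, 315 and 322 in control libraries. As a copy of a ribosomal protein gene its count is uncertain, and it was not called (edgeR adjusted p = 0.622). On chromosome 3 no tested gene started between RPL23AP42, at 161429127, and RPL22P1, at 169483671. GOLIM4, listed for the same band, also had 0 reads in all 6 libraries. Why this stretch held no tested gene was not tested.

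The promoter windows of the 2 genes that fell and of the 3 genes without reads are shown for comparison of expressed and unread genes, from RefSeq on GRCh38.p14, from 250 bases before to 50 bases after the start, 5′ to 3′ on the gene's own strand. Capitals mark matches, on either strand, to any of 7 short motifs searched. These were the TATA motif TATAAA, the CCAAT box, the GC box GGGCGG, the WT1 and EGR motif GCGTGGGNG, the SOX motif AACAAT, the MECOM motif GACAAGATA and the AP-1 motif TGANTCA. No matches overlap in these windows. The windows are chr2:113278872-113279171 for PAX8, chr1:156705735-156706034 for CRABP2, chr10:117542496-117542795 for EMX2, chr3:169663663-169663962 for the outermost start of MECOM and chr19:9065702-9066001 for the outermost start of MUC16, of which EMX2 is on the plus strand and the others on the minus strand.
PAX8: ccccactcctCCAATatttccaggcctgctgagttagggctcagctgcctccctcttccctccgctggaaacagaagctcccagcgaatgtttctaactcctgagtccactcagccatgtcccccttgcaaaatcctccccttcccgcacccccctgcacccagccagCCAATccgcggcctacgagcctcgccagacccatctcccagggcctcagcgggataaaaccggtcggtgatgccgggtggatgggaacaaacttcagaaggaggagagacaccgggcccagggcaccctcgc
CRABP2: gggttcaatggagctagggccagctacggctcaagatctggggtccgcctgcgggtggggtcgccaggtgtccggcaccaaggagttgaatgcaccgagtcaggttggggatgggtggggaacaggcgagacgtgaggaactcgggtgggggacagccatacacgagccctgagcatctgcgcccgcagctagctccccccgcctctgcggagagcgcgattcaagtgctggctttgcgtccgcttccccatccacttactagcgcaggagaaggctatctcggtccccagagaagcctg
EMX2: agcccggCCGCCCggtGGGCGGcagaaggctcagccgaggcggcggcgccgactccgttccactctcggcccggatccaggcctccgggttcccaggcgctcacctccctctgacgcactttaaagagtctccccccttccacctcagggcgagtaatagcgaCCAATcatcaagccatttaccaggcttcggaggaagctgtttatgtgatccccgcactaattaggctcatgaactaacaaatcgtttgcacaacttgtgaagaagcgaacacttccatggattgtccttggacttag
MECOM: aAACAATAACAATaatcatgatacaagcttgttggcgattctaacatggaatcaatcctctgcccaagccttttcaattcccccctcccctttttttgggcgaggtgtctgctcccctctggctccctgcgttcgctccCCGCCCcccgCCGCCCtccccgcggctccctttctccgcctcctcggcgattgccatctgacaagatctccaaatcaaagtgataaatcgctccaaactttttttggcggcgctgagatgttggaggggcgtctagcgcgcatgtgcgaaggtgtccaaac
MUC16: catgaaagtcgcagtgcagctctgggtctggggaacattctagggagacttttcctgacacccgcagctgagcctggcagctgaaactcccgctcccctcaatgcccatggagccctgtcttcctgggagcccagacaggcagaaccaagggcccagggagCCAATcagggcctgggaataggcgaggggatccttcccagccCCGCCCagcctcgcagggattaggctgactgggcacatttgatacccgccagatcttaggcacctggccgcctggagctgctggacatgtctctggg
The PAX8 window holds 2 CCAAT matches, 240 and 82 bases before the start, a motif found in 34.6% of 35116 promoter windows of this length. The CRABP2 window holds none of the 7 motifs. EMX2 has 2 GC boxes (in 45.0% of windows) and 1 CCAAT match, MECOM has 2 adjoining SOX matches (in 10.1% of windows) and 2 GC boxes, and MUC16 has 1 CCAAT match and 1 GC box. The ratio of observed to expected CpG was 0.483 for PAX8 and 0.658 for CRABP2, against a median of 0.579 over all windows. Among the genes without reads it was high for EMX2 (0.846) and MECOM (0.896) and low for MUC16 (0.278). RefSeq gave a window for 7 of the 10 genes, and MSLN, FOLR1 and SOX17 had none in the table used.

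Among the surface and secreted markers, MSLN (ENSG00000102854, chromosome 16, 760762 to 768865, plus strand) was high in both groups. MSLN had 182, 200 and 192 CPM in BARD1-expressing libraries, against 193, 181 and 174 CPM in control libraries. The groups overlapped, and the log2 fold change of 0.07 ± 0.054 was not called (SE, edgeR adjusted p = 0.403). Its partner MUC16 (ENSG00000181143, chromosome 19, 8848844 to 8981342, minus strand) had 0 reads in all 6 libraries, which over 43830 counted bases allows 0.0108 to 0.0216 TPM per library. The RefSeq window printed above lies beyond the end of the MUC16 model that was counted, so transcripts confined to the part beyond that model would not be in this count. Reads of MSLN per read of PAX8 were 2.07, 2.03 and 2.19 in BARD1-expressing libraries and 1.27, 1.26 and 1.30 in control libraries.

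FOLR1 (ENSG00000110195, chromosome 11, 72189558 to 72196323, plus strand) had 3.70, 3.39 and 4.31 CPM in BARD1-expressing libraries, against 2.56, 2.50 and 2.63 CPM in control libraries. Every BARD1-expressing library lay above every control library, as at 21.7% of tested genes. These values rest on 47, 82 and 65 reads in BARD1-expressing libraries and 62, 57 and 57 in control libraries, so counting error is large. The antisense gene AP000812.1, which overlaps FOLR1, had no more than 3 reads in any library. The log2 fold change was 0.56 ± 0.193 (SE, edgeR adjusted p = 0.0322). It kept its direction in 13 of 13 alternatives and lost the call in 6 of them, with adjusted p from 0.0566 to 0.154. These were DESeq2, no low-count filter, and the fits without BARD1-expressing library 3 or without any one of the control libraries.

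WFDC2 (ENSG00000101443, chromosome 20, 45469706 to 45481532, plus strand) had 14, 20 and 14 reads in BARD1-expressing libraries and 32, 39 and 31 in control libraries. On the CPM scale this is 1.10, 0.826 and 0.929 in BARD1-expressing libraries, against 1.32, 1.71 and 1.43 in control libraries. The groups did not overlap, as at 19.2% of tested genes in this direction. The log2 fold change of -0.67 ± 0.310 was about as large as that of PAX8 but was not called (SE, edgeR adjusted p = 0.113).

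CRABP2 (ENSG00000143320, chromosome 1, 156699606 to 156705816, minus strand) had 7.24, 7.19 and 8.63 CPM in BARD1-expressing libraries, against 10.9, 11.3 and 12.3 CPM in control libraries. All 3 BARD1-expressing libraries lay below the controls. The log2 fold change was -0.58 ± 0.122 (SE, edgeR adjusted p = 0.000705), which is 0.667 of the control level. An antisense gene that overlaps CRABP2, AL590666.4, had 2 reads in BARD1-expressing library 2 and none in the other libraries.

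**Figure D2:**
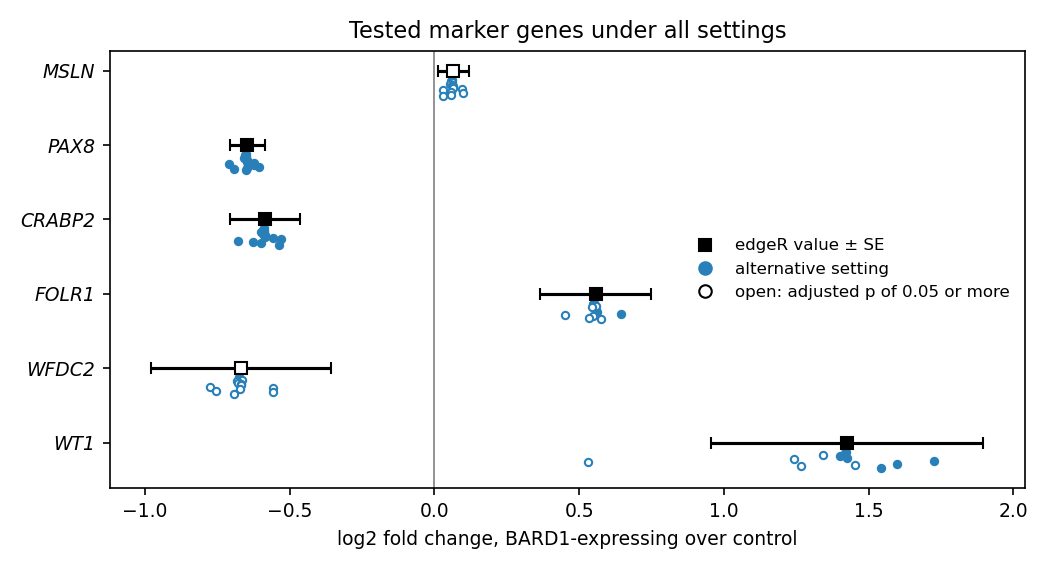
Log2 fold change, BARD1-expressing over control, of the 6 tested genes (squares, ± SE) and under each alternative setting (circles), with open symbols for an adjusted p of 0.05 or more. PAX8 and CRABP2 stay filled and negative throughout, FOLR1 and WT1 turn open in several settings, and WT1 has 1 circle at 0.53, from the fit without BARD1-expressing library 2.

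The genes around PAX8 were compared with those around CRABP2. Of the 10 tested genes nearest to PAX8, 2 were higher and 5 lower, with a median log2 fold change of -0.21. Over all tested genes 16.5% were higher and 12.4% lower. The 5 lower genes include PAX8-AS1, which overlaps PAX8 and may share reads with it. The gene next to PAX8-AS1 is PSD4 (chromosome 2, starting at 113157325), an exchange factor of the ARF6 GTPase, and it fell to 4.75 CPM in BARD1-expressing cells, against 7.26 CPM in control cells (log2 fold change -0.60 ± 0.154, edgeR adjusted p = 0.0042). On that side the next 2 called genes were the cytokine gene IL1B (1.49 ± 0.434) and the mitotic gene CKAP2L (0.32 ± 0.053), and both were higher. IL1B was at a low level, with 1.04 CPM in BARD1-expressing cells and 0.348 CPM in control cells. On the other side the nearest tested gene, CBWD2 (0.11 ± 0.096), was not called, and DDX11L2 (-0.79 ± 0.191), AL078621.3 and RPL23AP7 fell. CBWD2, DDX11L2 and RPL23AP7 belong to duplicated families, so their counts are uncertain. Around CRABP2, 2 of 10 genes fell, GPATCH4 (-0.29 ± 0.077) and the low-count gene AL365181.3 (-1.26 ± 0.448), and the median was -0.05. The adjoining genes NES and ISG20L2 had log2 fold changes of 0.01 and -0.0033. Around MSLN 3 of 10 genes were higher and 3 lower, and around FOLR1 2 were higher and none lower.

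**Figure D3:**
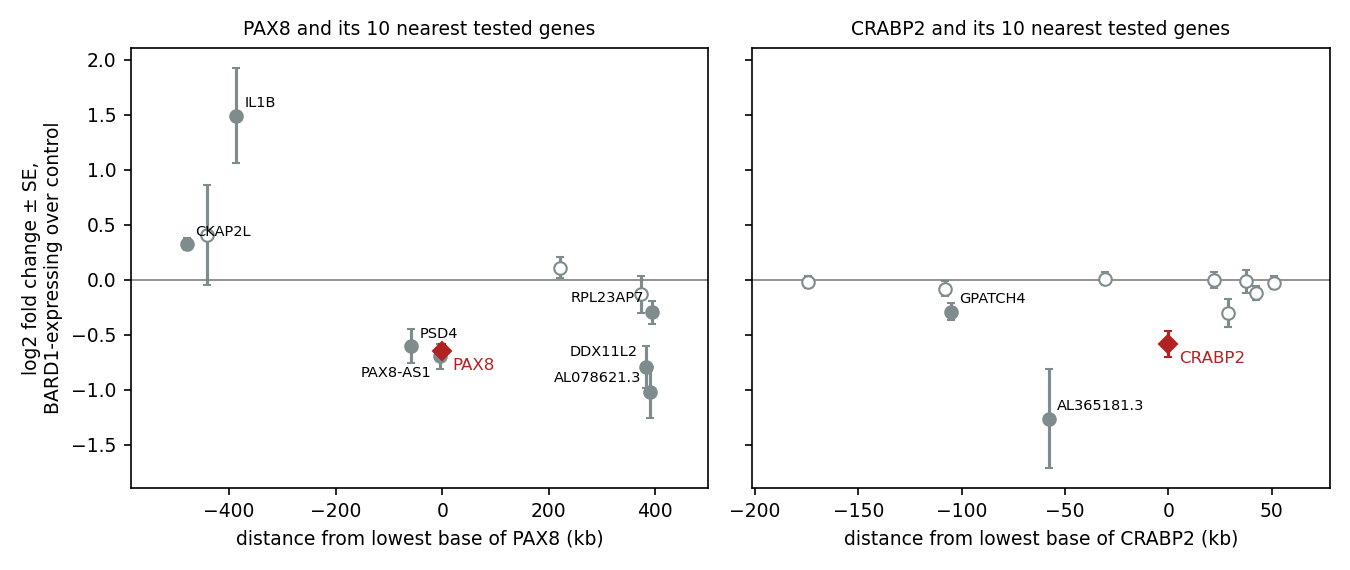
Log2 fold change ± SE of PAX8 (left) and CRABP2 (right), as red diamonds, and of the 10 nearest tested genes of each, against the distance between the lowest bases of the genes on the chromosome in kb. Filled circles, which are named, had an adjusted p under 0.05. PAX8, PAX8-AS1 and PSD4 lie together near -0.6 to -0.7, whereas most genes beside CRABP2 lie near 0.

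Other transcription factors of the Müllerian duct and gonad changed in both directions. Of 28 listed, 17 were tested, 3 were higher and 3 lower, and the median log2 fold change was -0.05 (-0.0027 over all tested genes). LHX1, a LIM homeobox factor that the mouse needs to form the Müllerian duct, had 8, 31 and 12 reads in BARD1-expressing libraries and 148, 131 and 93 in control libraries (log2 fold change -2.48 ± 0.245, edgeR adjusted p = 2.60e-08). The groups were far apart. BNC1, a basonuclin zinc finger gene, fell to 80.9 ± 4.76 CPM in BARD1-expressing cells, against 106 ± 8.88 CPM in control cells (SD, n = 3 each), and GATA6, on chromosome 18, fell as well (-0.76 ± 0.181). LHX2 (0.35 ± 0.090) and MEIS2 (0.36 ± 0.106) rose, and PAX2, the closest relative of PAX8 in the urogenital tract, passed upwards from 19, 27 and 10 reads in BARD1-expressing libraries and 11, 9 and 12 in control libraries, a call lost in 5 of 12 alternatives. The MEIS2 call was lost in 2 of 13. NR2F2, a nuclear receptor gene of the reproductive tract, stood at 289 ± 4.20 CPM in BARD1-expressing cells and 292 ± 13.3 CPM in control cells and was not called (SD, n = 3 each). Epithelial factors of the list had too few reads to test, with 0 reads of GRHL2 and EHF in all libraries and 1 read of ELF3. OVOL2 had 3, 3 and 6 reads in BARD1-expressing libraries and 1, 0 and 0 in control libraries.

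Of 30 further surface and secreted markers of serous carcinoma, 14 were tested, 6 were higher and 2 lower, with a median log2 fold change of 0.30. The growth factor gene MDK (midkine) rose to 16.8 ± 1.99 CPM in BARD1-expressing cells, against 5.82 ± 0.513 CPM in control cells, and the keratin gene KRT7, a marker of Müllerian carcinomas, to 1066 ± 57.6 CPM, against 842 ± 11.6 CPM in control cells (SD, n = 3 each). BCAM (0.50 ± 0.071), which encodes a laminin receptor, and the tight junction gene CLDN3, with 16, 65 and 18 reads in BARD1-expressing libraries and 0 in each control library, rose as well. SPON1, which encodes spondin, fell to 1.31 ± 0.107 CPM in BARD1-expressing cells, against 3.14 ± 0.353 CPM in control cells (SD, n = 3 each). MUC1 and SPINT2 were the other 2 called higher, in calls lost in 2 and 3 of 13 alternatives. EPCAM, CD24 and PRAME were expressed and not called. The kallikrein genes KLK5, KLK6, KLK7, KLK8, KLK10 and KLK11, the phosphate transporter gene SLC34A2 and SCGB2A1 had 0 reads in all libraries.

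Relatives of the 10 genes were read as well. Of 25 listed, 10 were tested, 5 were higher and 2 lower. EGR1, an immediate early gene whose zinc fingers resemble those of WT1, rose to 12.0 ± 1.46 CPM in BARD1-expressing cells, against 3.00 ± 0.226 CPM in control cells, and PRDM16, the paralog of MECOM, to 7.79 ± 1.17 CPM, against 4.32 ± 0.765 CPM in control cells (SD, n = 3 each). SOX18 (0.64 ± 0.191), of the same SOX group as SOX17, passed upwards, a call lost in 3 of 13 alternatives. SOX7, also of that group, was not called (-0.54 ± 0.275), nor were EGR2 and EGR4, relatives of EGR1. SLPI, a protease inhibitor of the WFDC family, fell to 0.938 ± 0.133 CPM in BARD1-expressing cells, against 2.04 ± 0.256 CPM in control cells (SD, n = 3 each). MSLNL, the relative of MSLN, was the other gene called lower (-0.73 ± 0.256), a call lost in 5 of 13 alternatives. Of the nearest relatives of FOLR1 and CRABP2, FOLR2, IZUMO1R and CRABP1 had 0 reads in all libraries, and FOLR3 had 0 to 7 reads per library.

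The pathways that FOLR1, CRABP2 and WT1 belong to were described by their counts. Among folate transporters and enzymes of one-carbon metabolism, 4 of 21 tested genes were higher and 4 lower (median -0.06). The mitochondrial enzymes ALDH1L2 (0.93 ± 0.077), MTHFD1L (0.33 ± 0.055) and MTHFD2 (0.20 ± 0.049) rose, the MTHFD2 call being lost in 1 of 13 alternatives, and the thymidylate synthase gene TYMS (-0.46 ± 0.058), on chromosome 18, fell. Other mitochondrial genes of the list did not follow that rise. MTHFD2L was called lower (-0.45 ± 0.132), a call lost in 2 of 13 alternatives. SHMT2 (0.14 ± 0.054) and the carrier gene SLC25A32 (-0.61 ± 0.268) were not called. The folate carriers SLC19A1 and SLC46A1 were not called, with SLC19A1 at 60.6 ± 3.02 CPM in BARD1-expressing cells and 65.2 ± 1.31 CPM in control cells (SD, n = 3 each). Among carriers, enzymes and receptors of retinoic acid, 3 of 17 were higher and none lower (median 0.06). TGM2, a transglutaminase gene that retinoic acid is known to induce, rose to 158 ± 5.41 CPM in BARD1-expressing cells, against 90.1 ± 3.40 CPM in control cells (SD, n = 3 each), and CYP26C1, of the enzymes that break down retinoic acid, rose at a low level (1.07 ± 0.338), a call lost in 4 of 13 alternatives. The receptor genes RARA, RARB, RARG, RXRA and RXRB were not called. Of 14 genes known as targets of WT1 in kidney or gonad, 9 were tested, 2 were higher and 4 lower. CDKN1A (1.18 ± 0.105) and PODXL (0.34 ± 0.053) rose, and ERBB3 (-0.77 ± 0.064), AREG (-1.78 ± 0.200), BCL2 (-0.93 ± 0.101, on chromosome 18) and IGF1R (-0.24 ± 0.066) fell, the IGF1R call being lost in 1 of 13 alternatives. Around MECOM in band 3q26.2, 11 of 20 genes were tested, 2 were higher and 1 lower, and 7 had no read in any library. Each of these 3 calls was lost in some alternatives, SEC62 (higher) in 2 of 13, GPR160 (higher) in 5 of 13 and CLDN11 (lower) in 5 of 13. SEC62 and PRKCI stood at 129 and 128 CPM in BARD1-expressing cells and 114 and 128 CPM in control cells.

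**Figure D4:**
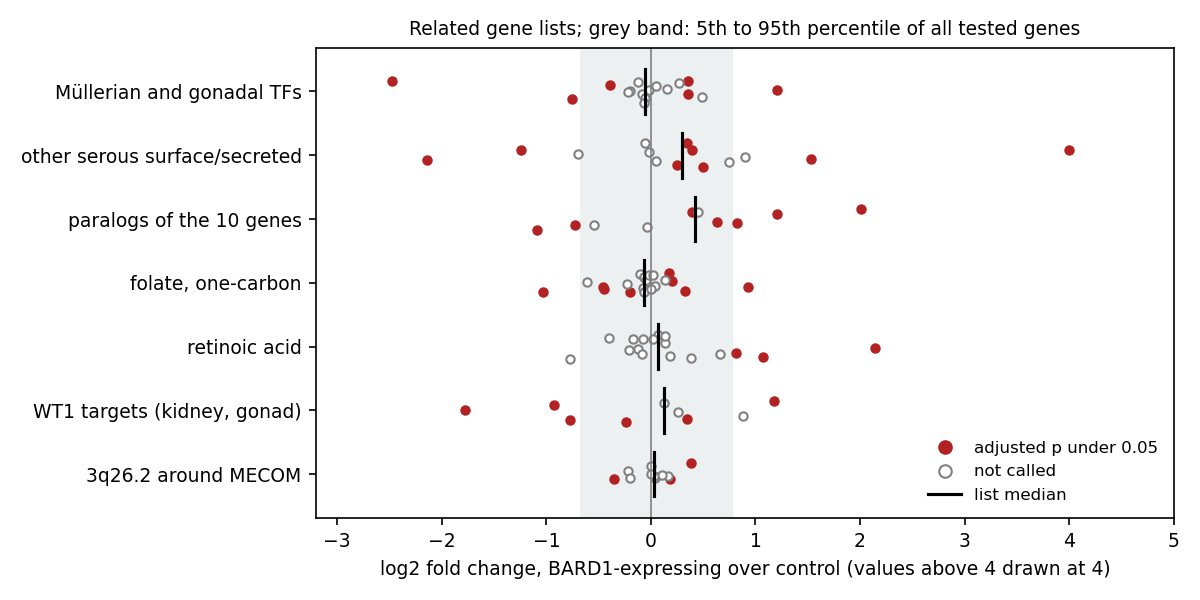
Log2 fold change, BARD1-expressing over control, of each tested gene in 7 related lists, filled where the adjusted p was under 0.05, with the list median as a bar and the 5th to 95th percentile of all tested genes (-0.67 to 0.78) as a grey band. LHX1 at -2.48 is the point farthest to the left, and CLDN3, without a read in control cells, is drawn at 4.

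Markers of other tissues and cell types were read in the same libraries. Immune markers were nearly absent, with none of 8 tested and a sum of 0.330 to 0.863 CPM in BARD1-expressing libraries and 0.277 to 0.495 CPM in control libraries. Of 8 fibroblast markers 3 were tested. PDGFRB (1.51 ± 0.129) and LUM (1.98 ± 0.519) were higher and COL1A1 (-0.32 ± 0.047) lower. DCN was at 0, and COL1A2 and COL3A1 at no more than 2 reads per library. The list summed to 839 to 886 CPM in BARD1-expressing libraries and 1015 to 1082 CPM in control libraries. Most of that sum is COL1A1, at 825 to 872 CPM in BARD1-expressing libraries and 1010 to 1076 CPM in control libraries. Of 8 endothelial markers 2 were tested and both, ESAM and KDR, were higher, the KDR call being lost in 4 of 12 alternatives, with EMCN at 0 and CDH5 at no more than 1 read per library, and the list summed to 6.06 to 7.90 CPM in BARD1-expressing libraries and 2.06 to 2.10 CPM in control libraries. Mesothelial markers, which overlap with serous carcinoma in WT1 and MSLN, were mixed. Of 6 tested genes 2 were higher (DES and PDPN) and 2 lower (BNC1 and CALB2, the CALB2 call being lost in 4 of 13 alternatives). ITLN1 and KRT5 were at 0, and sums were 97.0 to 109 CPM in BARD1-expressing libraries and 111 to 129 CPM in control libraries. BNC1, also listed above among transcription factors, made up most of it, at 75.5 to 84.2 CPM in BARD1-expressing libraries and 97.6 to 115 CPM in control libraries. Of 10 markers of ciliated tubal cells 4 were tested and 1, TPPP3, was higher, in a call lost in 4 of 12 alternatives, with SNTN and DNAH9 at 0 and sums of 3.22 to 4.13 CPM in BARD1-expressing libraries and 2.81 to 3.18 CPM in control libraries. Of 8 breast and lung markers 3 were tested and 1 was higher, and the list summed to 84.2 to 96.0 CPM in BARD1-expressing libraries and 72.7 to 78.2 CPM in control libraries. NKX2-1, a homeobox factor used as a marker of lung and thyroid, stood at 72.6 ± 7.48 CPM in BARD1-expressing cells and 57.7 ± 2.55 CPM in control cells (SD, n = 3 each; log2 fold change 0.34 ± 0.071, edgeR adjusted p = 0.000735), while the surfactant genes SFTPB, SFTPC and SFTPA1 had 0 to 4 reads per library. Of 9 clear cell and gastrointestinal markers 3 were tested and 1 was higher, with TFF3 at 0 and sums of 25.9 to 29.6 CPM in BARD1-expressing libraries and 17.8 to 21.6 CPM in control libraries. The intestinal factor gene CDX2 stood at 7.02 CPM in BARD1-expressing cells and 6.92 CPM in control cells, whereas the intestinal genes CDH17, VIL1 and LGALS4 had 0 to 3 reads per library. The part of these markers in the results was not tested.

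The profiles most like those of the 3 well-expressed genes were found among tested protein-coding genes, as the smallest root mean square distance between centred log2 CPM over the 6 libraries, among 13008 candidates. Nearest to PAX8 were the linker histone gene H1F0 (distance 0.0472), PNPLA3 (0.0544) and the DNA helicase gene ERCC2 (0.0545). Nearest to CRABP2 were SETBP1 (0.0531), on chromosome 18, IQCG (0.0544) and C3orf14 (0.0643), and nearest to MSLN were KIF22, GUCD1 and DIDO1, at 0.0133 to 0.0154. H1F0 stood at 125 CPM in BARD1-expressing cells and 194 CPM in control cells. Its proportion is near that of PAX8 because it was selected by that distance.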

How the data were processed

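The authors deposited raw read counts per gene, whole numbers, for 6 libraries, with gene positions, lengths and biotypes. The submitters' processing notes name DESeq2 1.20.0, HISAT2 2.0.5 and featureCounts 1.5.0-p3 and the build GRCh38 (hg38), with no role, order or options. The labels' protocols name poly(T) selection and describe directional as well as non-directional libraries. Columns were assigned by the descriptions in the labels. Of the gene names, 27 had turned into dates, none of them among the genes described.

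The test was run on the counts with edgeR 4.0.16 in R 4.3.3: filterByExpr, TMM scaling, and the robust quasi-likelihood F test on group alone (4 residual degrees of freedom), adjusted by Benjamini-Hochberg over 15400 tested genes. SEs were derived from the log2 fold change and its F statistic. TPM was computed from counts and the deposited gene lengths. The procedure was also run on counts simulated with the dispersions fitted to these libraries. Changes were set only at genes above 1 CPM, so that run cannot show how changes at lower counts are recovered. Alternatives used RLE scaling, TMM without chromosome 18 and mitochondrial genes, DESeq2 1.42.0, other low-count filters, no robust estimation, a replicate block, and each library left out. Adding PAX8-AS1 reads to PAX8 was chosen after seeing the data.

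Library totals ran from 12744310 to 24349158, and 3 reads, the limit that a count of 0 allows, are 0.123 to 0.235 CPM. Reads are not independent molecules, so intervals and limits cover counting error only. Within groups the chi-square per degree of freedom between library pairs was 3.41 to 8.11 over genes with at least 20 reads in a pair. The largest value was that of BARD1-expressing libraries 1 and 2. Such values show only that no pair differed by counting error alone, and they do not test library quality. All libraries were kept. The titles number the samples of each group as biological replicates. The labels do not say whether these came from separate cultures. The spread behind the p-values is that of these libraries, and how much of it is technical is not known.

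The 10 genes and the lists were chosen with earlier results of these data known. Genes named are the 10, BARD1, overlapping genes, up to 4 called genes of each list by p, the highest markers of other cell types and the 3 nearest profiles. Others were chosen after their values were seen. Of 26 retinoic acid genes listed, 25 matched a row, and of 4 antisense genes 3 did, while the other lists matched in full. Some genes of these lists are counted but not reported here by name.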

Additional observations from a re-analysis of the deposited data

How the results depend on the processing

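The number of called genes (4460) stayed within 1.5 times in all 13 alternatives, at 3317 to 4755, and 2 of the 10 genes, PAX8 and CRABP2, were called lower in each. PAX8 ranged from -0.71 to -0.61 and CRABP2 from -0.68 to -0.53 on the log2 scale. MSLN (0.03 to 0.10) and WFDC2 (-0.77 to -0.56) were never called. The number called higher (2, FOLR1 and WT1) was 0 with DESeq2, and 1 without a low-count filter, with at least 1 CPM in 3 libraries, which removes WT1, and with the replicate block. With 1 library left out it ranged from 0 to 2. FOLR1 lost its call in 6 of 13 alternatives and WT1 in 5 of 12, with WT1 at 0.53 to 1.72; the cause was not tested. No log2 fold change of these genes reversed.

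Replicate numbers did not pair the libraries: deviations from the group means correlated at -0.338, -0.025 and -0.0548 for same-numbered libraries, over 10847 genes averaging 5 CPM or more. For differently numbered libraries the values ran from -0.306 (BARD1-expressing library 2, control library 3) to 0.331 (BARD1-expressing library 2, control library 1). The cause of this shared variation was not tested. The fit with the replicate block called 3990 genes, 2 of the 10 lower (PAX8 at -0.65, CRABP2) and 1 higher, FOLR1, with WT1 at 1.24 (adjusted p = 0.0529). Median log2 fold changes of all tested genes lay within 0.0112 of 0 under each scaling. Such scalings centre most genes near 0 by design, so these medians cannot test them. Low counts limit what can be read at WT1, WFDC2 and FOLR1, with 5 to 82 reads per library, and at the genes with 0 reads. At WT1 the Poisson intervals of BARD1-expressing library 2 (1.29 to 2.39 CPM) and library 1 (0.128 to 0.918 CPM) did not overlap. The source of that spread was not tested.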
